A study of Mus musculus with 12 samples.

Results

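The Ifit family of the mouse comprises interferon-induced proteins with tetratricopeptide repeats, and 4 of its genes, Ifit1, Ifit2, Ifit3 and Ifit3b, were followed through RNA sequencing of bone marrow derived macrophages (BMDMs). They were taken by symbol from the 54232 genes of the count table, with no threshold on their values. The family was chosen by its name, but with results of these libraries known, among them lower Ifit1 in the presence of R788, so its values across R788 are given here as a description and without a test.

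The macrophages came from C57BL/6 mice and had grown for 5 days with M-CSF, the macrophage growth factor. For 24 h they then received tumor-conditioned medium (TCM) or none, each with or without 500 nM R788 (fostamatinib), a prodrug whose active form inhibits the tyrosine kinase Syk. TCM was that of NB9464, a MYCN-amplified neuroblastoma line of the mouse, or of NBT3L, which lacks that amplification, to ask whether products of neuroblastoma cells reprogram macrophages and whether blocking Syk alters this. The 6 groups, each of 2 libraries (SJ1 to SJ12 in this order), were NS (neither TCM nor R788), NB9464 TCM, NBT3L TCM, R788 (no TCM), NB9464 TCM + R788 and NBT3L TCM + R788. All macrophages were wild type per the labels. NB9464 TCM was collected over 48 h in DMEM without serum, whereas the making of NBT3L TCM, the medium of the NS cells and the vehicle of R788 were not described. Effects of tumor products, base medium and serum therefore cannot be told apart in any comparison of TCM with no TCM, and neither can effects of R788 and of its vehicle. The labels do not say whether the 2 libraries of a group came from separate cultures or animals, so p-values measure only the spread between these libraries.

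Ifit genes are among the genes most strongly induced by type I interferon. Interferon-alpha and interferon-beta bind the receptor IFNAR1/IFNAR2, and the kinases JAK1 and TYK2 then activate the complex ISGF3, which holds STAT2 and IRF9 and binds interferon-stimulated response elements (ISREs) in promoters. IFIT proteins bind RNA and restrict viruses: IFIT1 recognizes the cap of RNA that lacks 2'-O methylation, IFIT2 binds AU-rich RNA and is linked to apoptosis, and IFIT3 acts as a partner of the other members. Macrophages hold a low tonic level of this program even without infection, kept up by small amounts of interferon.

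All members lie on chromosome 19 of GRCm38 (mm10) within 99316 bases. Per GENCODE M21, Ifit2 (ENSMUSG00000045932) spans chr19:34550694-34576419, Ifit3 (ENSMUSG00000074896) chr19:34583531-34588731, Ifit3b (ENSMUSG00000062488) chr19:34607970-34613401 and Ifit1 (ENSMUSG00000034459) chr19:34640871-34650009, all on the plus strand. The related loci Ifit1bl1 (chr19:34592891-34601956) and Ifit1bl2 (chr19:34617049-34640743) lie among them on the minus strand. No exon of these 6 loci overlapped an exon of another gene. Ifit3 and Ifit3b are near-identical copies, with 11 mismatches over 1209 coding bases (99.1% identity), while the other pairs of members matched at 55.8% to 61.7% of aligned coding bases. Of all 100-base windows of Ifit3 transcripts 31.65% also occur in Ifit3b, against 3.29% of Ifit1 windows shared with another Ifit locus (Ifit1bl2) and none of Ifit2. The split of reads between Ifit3 and Ifit3b is thus uncertain, and so are their separate values. Counted as a sum, the pair enters below only in the median over the members.

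The stretches before the transcript starts of Ifit1, Ifit3 and Ifit3b are shown because they hold the ISRE letters through which ISGF3 is known to act. The sequences are from RefSeq (GRCm38.p6, plus strand, 5′ to 3′), and capitals mark the ISRE core, which is GAAA, any 2 bases and GAAA, and reads TTTC, 2 bases and TTTC on the other strand. The Ifit1 stretch (chr19:34640744-34640870) is the gap between the first exons of Ifit1 and of Ifit1bl2. Those of Ifit3 (chr19:34583279-34583528) and Ifit3b (chr19:34607707-34607956) are the 250 bases before each RefSeq start.
Ifit1: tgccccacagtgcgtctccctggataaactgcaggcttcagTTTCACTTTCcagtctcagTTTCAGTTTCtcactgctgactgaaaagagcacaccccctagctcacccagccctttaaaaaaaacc
Ifit3: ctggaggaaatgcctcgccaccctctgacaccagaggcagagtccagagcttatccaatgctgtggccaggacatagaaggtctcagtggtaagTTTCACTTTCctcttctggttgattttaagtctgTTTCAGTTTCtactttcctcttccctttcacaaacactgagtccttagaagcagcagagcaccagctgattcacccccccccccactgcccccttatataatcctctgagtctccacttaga
Ifit3b: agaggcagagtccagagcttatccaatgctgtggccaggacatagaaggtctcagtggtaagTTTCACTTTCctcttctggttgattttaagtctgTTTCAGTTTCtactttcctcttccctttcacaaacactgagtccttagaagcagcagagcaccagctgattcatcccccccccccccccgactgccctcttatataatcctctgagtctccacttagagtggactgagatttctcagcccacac

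Each of the 3 sequences held 2 cores. In Ifit1 they began 104 and 85 bases before the RefSeq start, in Ifit3 156 and 122 bases, and in Ifit3b 188 and 154 bases. The Ifit3 and Ifit3b windows matched at 99.1% of 218 aligned bases, with a shared run of 169 bases that takes in both cores. The core occurred in 2.98% of all 32851 RefSeq windows of 250 bases, or for 3.46% of 27025 genes. A longer form, the core followed by CT (AG before it on the other strand), occurred for 0.26% of genes. The window of Ifit1 held 2 copies of it, and those of Ifit3 and Ifit3b 1 each. Both strands were searched. The Ifit1 pair also lies in a window of Ifit1bl2, which starts in the opposite direction. The 2 windows listed for Ifit2 held no core, which says only that these letters were not in those bases. Both windows of Ifit1bl1 held 1 core and no longer form. The letters of GAS, the element of the interferon-gamma response (TTC, any 3 bases and GAA, in windows of 8.13% of genes), matched once, in a window of Ifit2. Those of the TATA box (TATAAA, 14.3% of genes) matched in windows of Ifit1bl1 and Ifit1bl2 and in none of the 4 members.

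**Figure D1:**
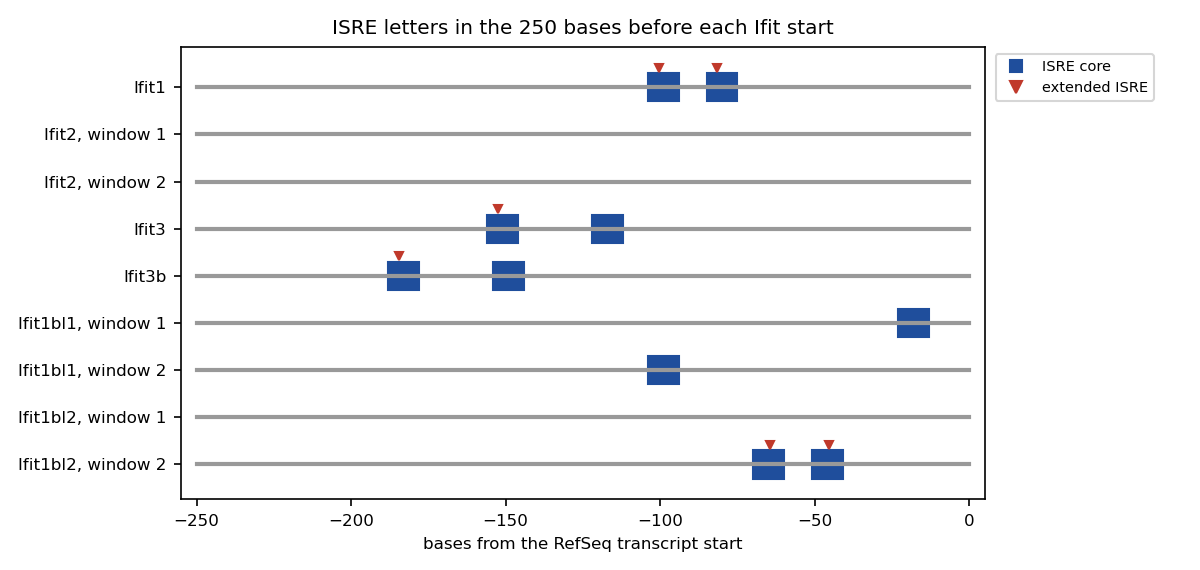
ISRE letters in the 250 bases before each RefSeq start of the Ifit loci. The horizontal axis gives bases from the transcript start, blue boxes mark the core and red triangles the longer form; Ifit1, Ifit3 and Ifit3b have 2 cores each, and the 2 windows of Ifit2 have none.

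Library totals ranged from 44977847 to 56449685 counts, and 16149 to 18343 genes were detected, the fewest in library SJ8 (R788). Replicates differed with an SD on the log2 scale of 0.371 for R788 alone and of 0.230 to 0.261 in the other groups. Markers of macrophages summed to 1610000 to 2691000 normalized counts, higher in every library with TCM than in any without. Of the markers of other cells, those of plasmacytoid dendritic cells, which are strong producers of interferon, summed to 50.7 to 63.5 in NS, 373.1 to 376.2 in NB9464 TCM, 59.4 to 159.1 in NBT3L TCM, 241.9 to 363.5 with R788 alone, 735.3 to 871.3 in NB9464 TCM + R788 and 201.0 to 206.8 in NBT3L TCM + R788. This sum came from Cox6a2 and Ccr9, and Siglech and Klk1 were at 0 in all libraries. Neuroblastoma markers summed to at most 144.4 (Th and Chga at 0), B cell markers to 94.5 to 524.2, and fibroblast markers to 1285 to 3498 (none of 4 at 0), with the highest value in NBT3L TCM + R788. Neutrophil markers summed to 395.4 to 412.5 in NS, 199.0 to 212.7 in NB9464 TCM, 312.7 to 382.4 in NBT3L TCM, 291.4 to 305.4 with R788 alone, 207.7 to 327.2 in NB9464 TCM + R788 and 341.5 to 391.9 in NBT3L TCM + R788 (none of 5 at 0). They were thus lower in every other group than in NS. Most of this sum came from Camp, with a mean of 251.9 normalized counts over the 12 libraries, followed by Cxcr2 with 30.5. T cell markers reached 64.7 to 81.8 with R788 alone and at most 29.1 in the other groups. Conventional dendritic cell markers summed to at most 89.0, and NK cell markers to at most 17.8 (Ncr1, Prf1 and Gzma at 0). The part of these cells in the results was not tested.

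Untreated macrophages expressed all 4 members. Per kb of gene length, the mean level in NS was highest for Ifit3 with 2893 normalized counts per kb, followed by Ifit2 with 1788, Ifit1 with 1204 and Ifit3b with 365.7. Summed over the members, the level was 6393 and 6110 per kb in the 2 NS libraries, 1376 and 1414 under NB9464 TCM, and 3523 and 3366 under NBT3L TCM. With R788 it was 802.6 and 846.9 where no TCM was given, 211.3 and 227.2 under NB9464 TCM, and 421.9 and 423.2 under NBT3L TCM. In this sum, NS was the highest and NB9464 TCM + R788 the lowest. In bulk RNA, fewer cells with the transcripts and less transcript per cell cannot be told apart.

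Ifit1, the cap sensor of the family, had 3274 and 3123 normalized counts in the NS libraries, 1678 and 1549 under NB9464 TCM, and 3754 and 3305 under NBT3L TCM. With R788 it had 543.5 and 425.5 where no TCM was given, 241.7 and 193.3 under NB9464 TCM, and 364.8 and 353.7 under NBT3L TCM. Ifit1 was the sole member whose highest group was NBT3L TCM rather than NS, a difference that did not pass the test.

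Ifit2, which binds AU-rich RNA, had 7291 and 6753 normalized counts in the NS libraries, 1177 and 868.6 under NB9464 TCM, and 2282 and 2254 under NBT3L TCM. With R788 it had 970.7 and 1182 where no TCM was given, 264.6 and 247.7 under NB9464 TCM, and 498.4 and 450.2 under NBT3L TCM. Levels in NB9464 TCM and with R788 alone overlapped.

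Ifit3 had 5210 and 4887 normalized counts in the NS libraries, 626.5 and 867.6 under NB9464 TCM, and 2275 and 2329 under NBT3L TCM. With R788 it had 515.3 and 530.1 where no TCM was given, 77.6 and 147.7 under NB9464 TCM, and 241.8 and 255.2 under NBT3L TCM. The replicates of NB9464 TCM + R788 stood farthest apart, by 0.93 on the log2 scale. Its copy Ifit3b followed the same order of groups at lower levels. Ifit3b had 635.8 and 826.8 in the NS libraries, 171.2 and 225.7 under NB9464 TCM, and 450.5 and 426.3 under NBT3L TCM. With R788 it had 110.9 and 163.7 where no TCM was given, 16.9 and 13.3 under NB9464 TCM, and 38.2 and 58.3 under NBT3L TCM. In NB9464 TCM + R788 its values rested on 17 and 12 raw counts. Per kb, Ifit3b made up between 7.30% and 21.2% of the pair in the 12 libraries.

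**Figure D2:**
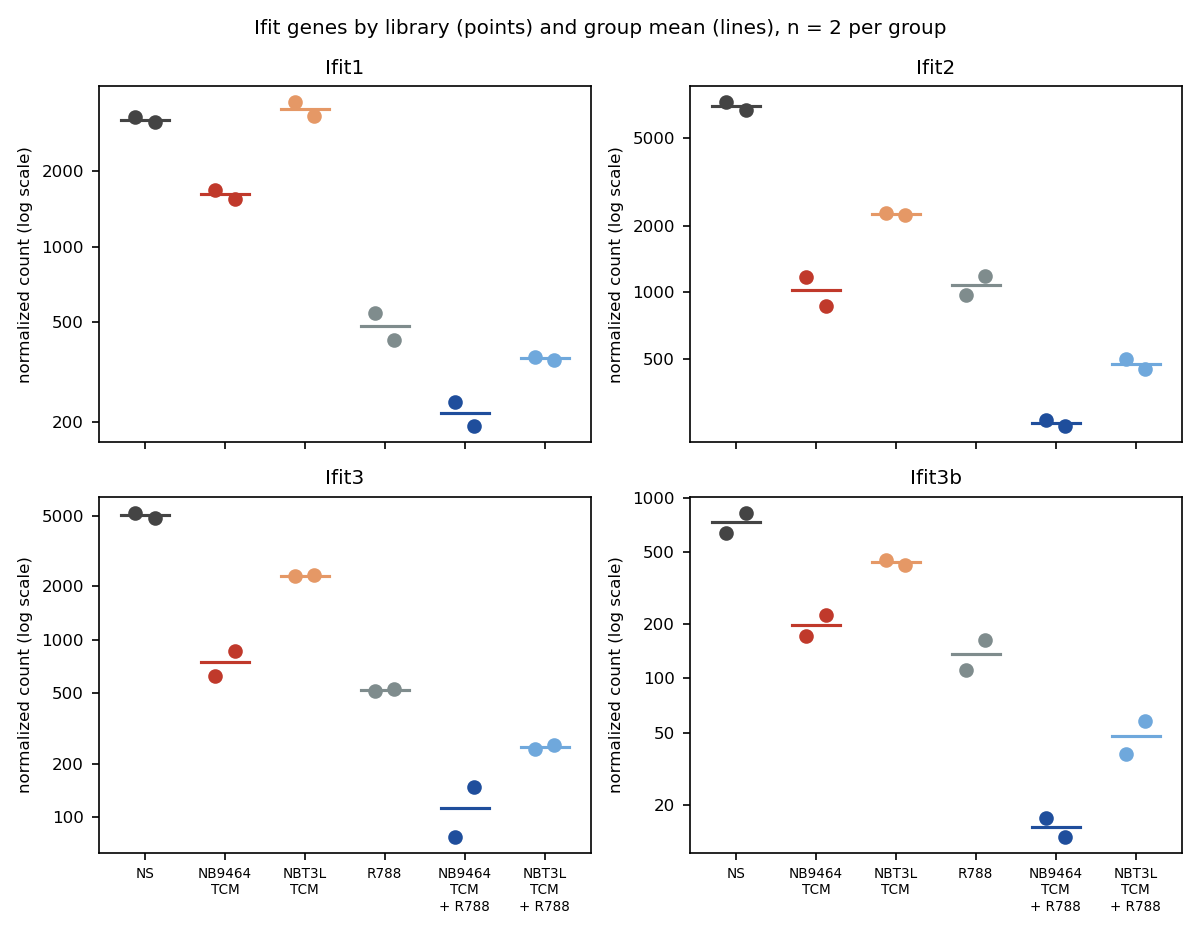
Normalized counts of the 4 Ifit genes (vertical axis, log scale) in the 6 groups. Points are libraries and lines are means of 2; Ifit2, Ifit3 and Ifit3b were highest in NS, Ifit1 was highest in NBT3L TCM with 3754 and 3305, and all were lowest in NB9464 TCM + R788.

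The response to TCM of the MYCN-amplified line, base medium and serum included, was read from NB9464 TCM against NS. All 4 members fell, against 16.9% of the 16281 genes tested that were called lower (DESeq2 adjusted p under 0.05), and their median log2 fold change was -2.32, with 0.02 over all genes tested. Ifit2 and Ifit3 fell to 14.6% and 14.8% of the NS mean, at log2 fold changes of -2.78 ± 0.14 (± SE, adjusted p by DESeq2 = 1.16e-88) and -2.76 ± 0.17 (adjusted p by DESeq2 = 1.05e-54). Ifit3b fell to 27.1%, with a log2 fold change of -1.88 ± 0.29 (adjusted p by DESeq2 = 1.47e-09). Ifit1 fell least, to 50.4% of the NS mean, with a log2 fold change of -0.99 ± 0.13 (adjusted p by DESeq2 = 1.60e-12).

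Under NBT3L TCM, 3 of 4 members were lower than in NS, where 17.3% of genes tested were called lower, and the median was -0.94, with 0.00 over all genes. Ifit2 fell to 32.3% of NS, a log2 fold change of -1.63 ± 0.14 (± SE, adjusted p by DESeq2 = 1.11e-31), and Ifit3 to 45.6%, a log2 fold change of -1.13 ± 0.17 (adjusted p by DESeq2 = 4.00e-10). Ifit3b was at 60.0% of NS, a log2 fold change of -0.74 ± 0.29 (adjusted p by DESeq2 = 0.0325), but this call was lost when any 1 of the 4 libraries was left out, with adjusted p by DESeq2 of 0.0543 and 0.329 without NS libraries SJ1 and SJ2, and of 0.12 and 0.168 without NBT3L TCM libraries SJ5 and SJ6. Ifit1 was not called. Its log2 fold change was 0.14 ± 0.13 (adjusted p by DESeq2 = 0.464), with a 95% interval from -0.12 to 0.40, and it lay between 0.05 and 0.23 when SJ5 or SJ6 was left out.

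Medium of the 2 tumor lines was compared directly. All 4 members were lower in NB9464 TCM than in NBT3L TCM, against 5.72% of genes tested called lower, with a median of -1.15 (all genes -0.001). Ifit3 differed most, at 32.5% of its level in NBT3L TCM, a log2 fold change of -1.62 ± 0.17 (± SE, adjusted p by DESeq2 = 2.94e-18). Ifit1, Ifit2 and Ifit3b stood at 45.7%, 45.1% and 45.3%, at log2 fold changes of -1.13 ± 0.13, -1.15 ± 0.14 and -1.14 ± 0.30 (adjusted p by DESeq2 = 3.48e-15, 1.52e-14 and 0.00181). The call of Ifit3b was lost without library SJ3 of NB9464 TCM (adjusted p by DESeq2 = 0.102) or SJ5 of NBT3L TCM (0.0666). Of the marker sums given above, those of plasmacytoid dendritic cells, B cells and T cells were higher in NB9464 TCM than in NBT3L TCM. Those of macrophages, fibroblasts, neuroblastoma cells and neutrophils were lower, and those of conventional dendritic cells and NK cells overlapped. The part of these cells in the difference was not tested.

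The same 3 comparisons were made among cells that all received R788. NB9464 TCM + R788 was below R788 alone for all 4 members, where 19.6% of genes tested were called lower, with a median of -2.15 (all genes 0.00). Ifit3b stood at 11.01% of its level with R788 alone, Ifit3 at 21.6%, Ifit2 at 23.8% and Ifit1 at 44.9%. The log2 fold changes were -3.18 ± 0.40, -2.22 ± 0.20, -2.07 ± 0.15 and -1.15 ± 0.15 (± SE, adjusted p by DESeq2 = 1.73e-14, 3.39e-27, 4.86e-41 and 9.23e-13). As without R788, Ifit1 had the smallest of the 4 differences.

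NBT3L TCM + R788 was also below R788 alone for all 4 members, where 19.9% of genes tested were called lower, with a median of -1.13 (all genes 0.00). The log2 fold changes of Ifit2, Ifit3 and Ifit3b were -1.18 ± 0.14, -1.07 ± 0.19 and -1.51 ± 0.33 (± SE, adjusted p by DESeq2 = 3.29e-15, 5.99e-08 and 2.31e-05). That of Ifit1 was -0.43 ± 0.15 (adjusted p by DESeq2 = 0.0102). The call of Ifit1 was lost without library SJ7 (log2 fold change -0.25, adjusted p by DESeq2 = 0.202), without SJ12 (0.08), or when only these 4 libraries were fitted (0.221).

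Between the media of the 2 lines in the presence of R788, all 4 members were again lower with NB9464 TCM, where 6.09% of genes tested were called lower, with a median of -1.02 (all genes -0.013). Log2 fold changes were -0.72 ± 0.16 for Ifit1, -0.89 ± 0.16 for Ifit2, -1.15 ± 0.21 for Ifit3 and -1.67 ± 0.42 for Ifit3b (± SE, adjusted p by DESeq2 = 0.000147, 6.28e-07, 1.23e-06 and 0.00138). Fitted on these 4 libraries alone, Ifit1 and Ifit3b were no longer called (adjusted p by DESeq2 = 0.0686 and 0.205), and Ifit3b was also lost without SJ12 (0.0936). Without SJ9, the log2 fold change of Ifit3 was -0.75 (adjusted p by DESeq2 = 0.0127).

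R788 went with lower Ifit levels in each medium, given here as a description. Without TCM, the means with R788 were 15.2% of NS for Ifit1, 15.3% for Ifit2, 10.4% for Ifit3 and 18.8% for Ifit3b, at log2 fold changes of -2.73 ± 0.14, -2.71 ± 0.14, -3.27 ± 0.18 and -2.41 ± 0.30 (SE). In NB9464 TCM the log2 fold changes with R788 were -2.89 ± 0.15, -1.996 ± 0.15, -2.74 ± 0.20 and -3.71 ± 0.40 in the same order. In NBT3L TCM they were -3.30 ± 0.14, -2.26 ± 0.14, -3.21 ± 0.18 and -3.18 ± 0.32. These comparisons share libraries with those above.

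The lowest level of every member was that of TCM from NB9464 cells and R788 together. Relative to NS, the means there were 6.80% for Ifit1, 3.65% for Ifit2, 2.23% for Ifit3 and 2.07% for Ifit3b. The log2 fold change across R788 in NB9464 TCM minus that without TCM was -0.16 ± 0.20 for Ifit1, 0.709 ± 0.205 for Ifit2, 0.53 ± 0.27 for Ifit3 and -1.298 ± 0.495 for Ifit3b (SE). The same difference for NBT3L TCM was -0.57 ± 0.20, 0.45 ± 0.20, 0.06 ± 0.25 and -0.77 ± 0.44 in that order. With each library left out in turn, the NB9464 TCM values ran from -0.34 to 0.023 for Ifit1, from 0.505 to 0.943 for Ifit2, from 0.00 to 0.93 for Ifit3 and from -1.55 to -0.986 for Ifit3b, and those for NBT3L TCM from -0.74 to -0.39, 0.31 to 0.60, 0.015 to 0.108 and -1.11 to -0.46. Ifit2 thus stayed above 0 and Ifit3b below 0 in both media, while Ifit1 in NB9464 TCM turned positive without SJ7. Between the 2 TCMs, the difference of these log2 fold changes lay between -0.53 for Ifit3b and 0.47 for Ifit3. These too are descriptions without a test.

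**Figure D3:**
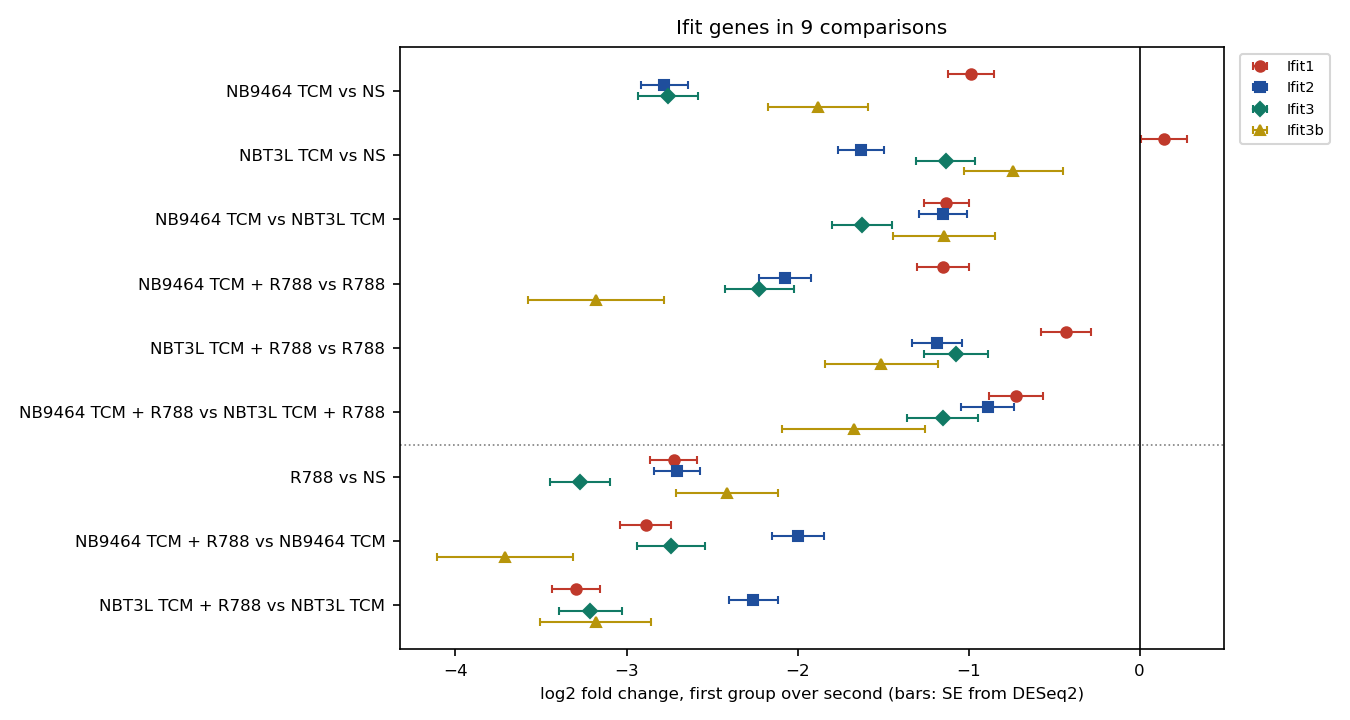
Log2 fold changes of the 4 Ifit genes (horizontal axis; bars are SE) in the 9 comparisons between groups. The dotted line sets off the R788 comparisons, given without a test; every value is below 0 except that of Ifit1 in NBT3L TCM against NS, at 0.14.

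The members did not keep the same proportions. Per kb, the ratio of Ifit1 to Ifit2 was 0.664 and 0.684 in NS, and 0.828 and 0.532 with R788 alone. It was 2.11 and 2.64 under NB9464 TCM, and 2.43 and 2.17 under NBT3L TCM. In TCM with R788 it was 1.35 and 1.15 for NB9464 and 1.08 and 1.16 for NBT3L. All 8 libraries with TCM were thus above 1 and the 4 without were below it, and among libraries with TCM those with R788 were below those without it. The share of Ifit1 in the family sum was 19.3% in both NS libraries and 45.9% and 41.2% in NB9464 TCM. The ratio of Ifit2 to Ifit3 showed no such division, with 0.622 and 0.614 in NS and 0.834 and 0.445 in the 2 libraries of NB9464 TCM.

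**Figure D4:**
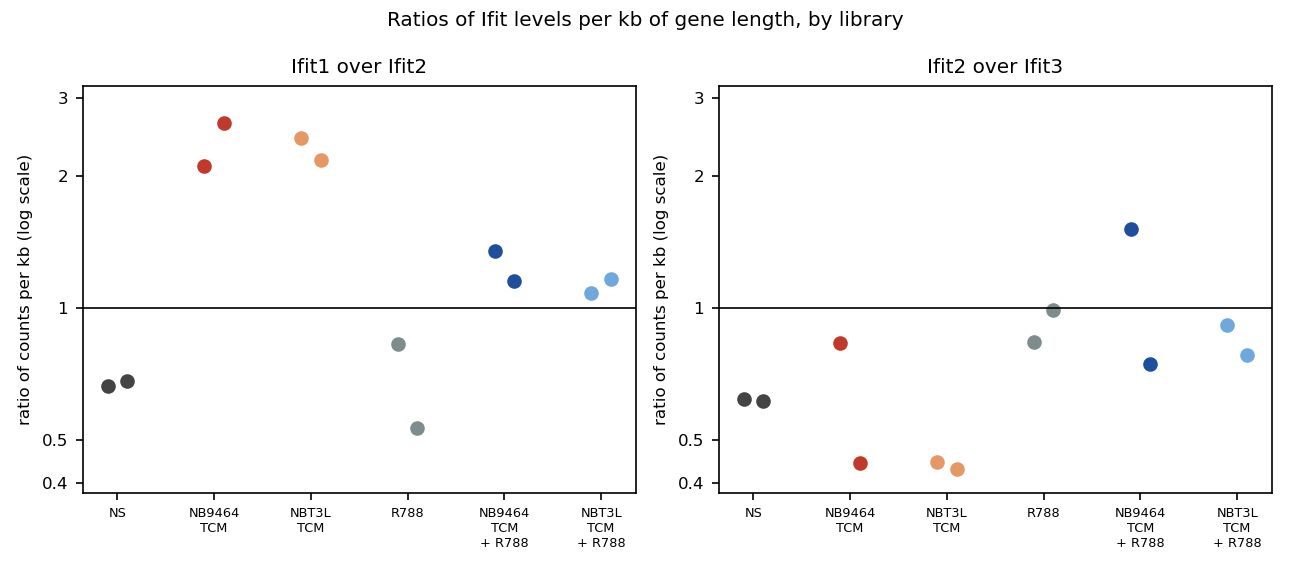
Ratios of levels per kb (vertical axes, log scale) in each library, Ifit1 over Ifit2 at left and Ifit2 over Ifit3 at right. Points are libraries, 2 per group; the ratio of Ifit1 to Ifit2 lies above 1 in every library with TCM and below 1 in every library without it.

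The 2 further loci of the cluster, Ifit1bl1 and Ifit1bl2, encode proteins related to IFIT1. Ifit1bl1 averaged 662.7 normalized counts in NS, 73.2 under NB9464 TCM and 143.3 under NBT3L TCM, with log2 fold changes against NS of -3.18 ± 0.86 (± SE, adjusted p by DESeq2 = 0.00106) and -2.21 ± 0.86 (adjusted p by DESeq2 = 0.0307). With R788 alone its replicates stood far apart, at 185.4 and 19.2. Ifit1bl2 was sparse, with 374 raw counts over all libraries, and was called in none of the 6 tested comparisons.

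The interferon pathway around the family was described with 7 lists of 88 genes. Interferon genes themselves gave few counts. Of 21 ligand genes, 17 had 0 counts in all 12 libraries, and none reached the level for testing. Ifnb1, which encodes interferon-beta, had 8 and 10 counts in the 2 NBT3L TCM libraries and 0 in the other 10. A count of 0 allows up to 3 counts per library, for counting error only and with each count taken as a separate fragment. If a fragment was counted as 2, as may be the case here, this limit would be higher. The 3 other ligands with any count were Ifnab with 2 counts, Ifnk with 4 and Ifnz with 1, named here because no more were found.

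Of 7 receptor and kinase genes, 2 were called lower and 2 higher in NB9464 TCM than in NS, where 16.9% and 17.2% of genes tested were called lower and higher. In NBT3L TCM 1 was lower and 4 were higher, with 17.3% and 18.0% over all genes tested. Ifnar1, a chain of the type I interferon receptor, had 15750 ± 324.7 normalized counts in NS (SD, n = 2), 13610 ± 443.6 under NB9464 TCM and 16490 ± 336.5 under NBT3L TCM. It was lower in NB9464 TCM than in NBT3L TCM by a log2 fold change of -0.28 ± 0.05 (± SE, adjusted p by DESeq2 = 3.13e-06). The kinase Jak1 had log2 fold changes against NS of 0.05 (adjusted p by DESeq2 = 0.553) and 0.23 (0.000476) in the 2 media, and Ifngr2, a chain of the interferon-gamma receptor, 0.15 (0.0451) and 0.35 (4.51e-08).

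Among 8 transcription factors of the pathway, 6 were lower and 2 higher in NB9464 TCM than in NS, and 5 were lower and 1 higher in NBT3L TCM, against the same shares over all genes tested. Irf7, the interferon-inducible factor that amplifies interferon production, had 25190 ± 185.5 normalized counts in NS (SD, n = 2) and fell to 7580 ± 6.95 under NB9464 TCM and 11470 ± 204.4 under NBT3L TCM. Its log2 fold changes were -1.73 ± 0.06 (± SE, adjusted p by DESeq2 = 3.36e-192) and -1.14 ± 0.06 (adjusted p by DESeq2 = 1.81e-83). With R788 Irf7 had 4073 ± 91.9 where no TCM was given, 1086 ± 13.3 under NB9464 TCM and 1850 ± 106.9 under NBT3L TCM (SD, n = 2), the order of groups seen for Ifit3 and Ifit3b.

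Stat2 and Irf9, which encode components of ISGF3, moved less. In NB9464 TCM against NS, log2 fold changes were -0.95 ± 0.06 for Stat2 and -0.41 ± 0.08 for Irf9 (± SE, adjusted p by DESeq2 = 1.04e-47 and 4.09e-07). In NBT3L TCM they were -0.44 ± 0.06 for Stat2 (adjusted p by DESeq2 = 5.37e-11) and -0.25 ± 0.08 for Irf9 (0.0043). Of the most abundant factors, Irf5, which acts downstream of Toll-like receptors, fell in both media, by log2 fold changes of -0.62 ± 0.08 and -0.72 ± 0.08 (adjusted p by DESeq2 = 3.16e-14 and 7.36e-19). Irf8, a factor of myeloid differentiation, rose by 0.37 ± 0.06 and 0.19 ± 0.06 (adjusted p by DESeq2 = 4.29e-08 and 0.0098).

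**Figure D5:**
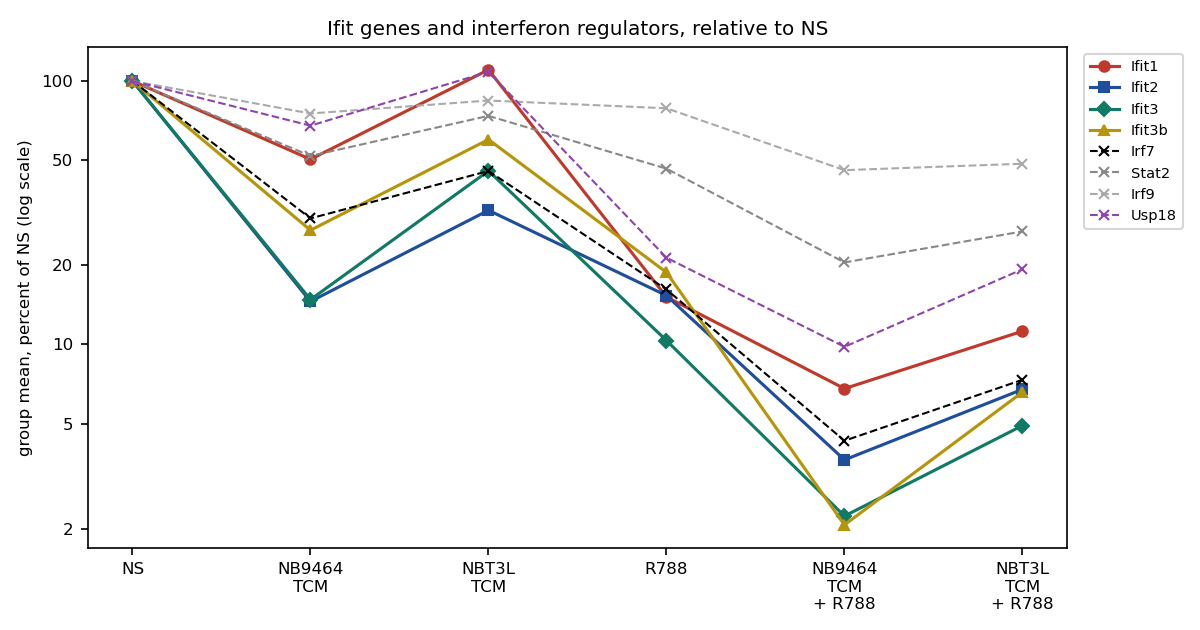
Group means of the 4 Ifit genes (solid lines) and of Irf7, Stat2, Irf9 and Usp18 (dashed lines), as percent of the NS mean (vertical axis, log scale). Lines only join the means of 1 gene, each of 2 libraries; Ifit3b reached 2.07% of NS in NB9464 TCM + R788, and Ifit1 and Usp18 were above NS in NBT3L TCM, where neither was called.

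Feedback inhibitors went in both directions. Usp18, an interferon-induced inhibitor of receptor signaling, resembled Ifit1 in its values against NS, with a log2 fold change of -0.56 ± 0.13 in NB9464 TCM (± SE, adjusted p by DESeq2 = 0.000106) and of 0.12 ± 0.13 in NBT3L TCM (0.563). Socs3, an inhibitor of JAK kinases induced by cytokines such as interleukin 6, had 489.3 ± 2.64 normalized counts in NS and rose to 18510 ± 90.5 under NB9464 TCM and 20830 ± 365.2 under NBT3L TCM (SD, n = 2). Its log2 fold changes were 5.24 ± 0.18 and 5.41 ± 0.18 (± SE, adjusted p by DESeq2 = 1.16e-180 and 1.21e-192). The phosphatase gene Ptpn6 rose by 0.52 ± 0.05 and 0.40 ± 0.05 (adjusted p by DESeq2 = 1.49e-22 and 5.52e-14). Socs3 and Ptpn6 did not differ detectably between the media of the 2 lines (adjusted p by DESeq2 = 0.644 and 0.141), whereas Usp18 was lower in NB9464 TCM, by a log2 fold change of -0.68 ± 0.13 (8.31e-06).

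Of 29 antiviral effector genes tested (30 listed), 28 were lower and none higher in NB9464 TCM than in NS, with a median log2 fold change of -0.82, and 15 were lower and none higher in NBT3L TCM, with a median of -0.36. Between the lines, 20 were lower in NB9464 TCM and none was higher. With R788 present, 24 of 29 were lower in NB9464 TCM + R788 than with R788 alone, 19 were lower and 2 higher in NBT3L TCM + R788, and 17 were lower with NB9464 than with NBT3L TCM. The 3 most abundant effectors were Ifitm3 and Bst2, which act at membranes, and the nucleotide hydrolase Samhd1, with log2 fold changes in NB9464 TCM against NS of -0.49 ± 0.09, -0.50 ± 0.09 and -0.39 ± 0.05 (± SE, adjusted p by DESeq2 = 2.84e-07, 6.11e-08 and 6.00e-12). Bst2 was not called in NBT3L TCM against NS, with 0.06 ± 0.09 (adjusted p by DESeq2 = 0.688). The background shares called lower in these comparisons are those given for the Ifit genes.

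Of 14 genes of nucleic acid sensors and their kinases, 8 were called lower and 3 higher in NB9464 TCM than in NS, where 16.9% and 17.2% of genes tested were called lower and higher. In NBT3L TCM 6 were lower and 4 higher, with 17.3% and 18.0% over all genes tested, so that the counts of higher genes were near the background. Ikbke, a kinase upstream of interferon induction, rose from 6716 ± 160.8 to 19940 ± 202.4 and 17870 ± 136.7 normalized counts (SD, n = 2), at log2 fold changes of 1.57 ± 0.06 and 1.41 ± 0.06 (± SE, adjusted p by DESeq2 = 1.27e-177 and 7.60e-143). Its relative Tbk1 rose by 0.17 ± 0.07 and 0.32 ± 0.07 (adjusted p by DESeq2 = 0.041 and 2.36e-05), and the RNA sensor Tlr7 was not called (0.126 and 0.0738). Genes of cap methyltransferases formed a list of 3. Of Cmtr1, Cmtr2 and Rnmt, only Rnmt was called, higher in both media than in NS, at log2 fold changes of 0.49 ± 0.14 and 0.46 ± 0.14 (adjusted p by DESeq2 = 0.00128 and 0.00307).

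Genes whose windows hold the longer ISRE form were counted in the same way. Leaving out the Ifit loci, 38 such genes were tested. Called lower were 63.2% of them in NB9464 TCM against NS, 44.7% in NBT3L TCM against NS and 36.8% in NB9464 against NBT3L TCM. Over all 11264 tested genes with a RefSeq window, 2140, 2208 and 752 genes were called lower, or 19%, 19.6% and 6.68%. For the core, whether or not within the longer form, 380 genes were tested, and these include the 38. The shares called lower were 25.8%, 23.7% and 12.9%. These are counts without a test, and a match of letters does not show binding.

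The genes whose pattern over the 12 libraries was most like that of the family were named by the correlation of log2 normalized counts with the mean standardized level of the 4 members, among 10711 genes. The 10 highest were Trim25 (Pearson's r = 0.993), Irf7 (0.992), Ifi204 (0.992), Stat2 (0.991), Cmpk2 (0.991), Ddx58 (0.991), Sp100 (0.991), Rsad2 (0.990), Mx1 (0.990) and Gbp3 (0.989). Of these 10 genes, 7 were in the lists above. The members lie on chromosome 19, and none of the 10 does. In all, 190 genes reached r of at least 0.9, and the points share libraries and groups, so these values are descriptions. Between members, r was lowest for Ifit1 with Ifit2 (0.883) and highest for Ifit2 with Ifit3 (0.973).

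These like genes differed in how far they fell. Mx1, a dynamin-like antiviral GTPase, had 2769 normalized counts in NS, 733.1 under NB9464 TCM, 1433 under NBT3L TCM and 67.8 under NB9464 TCM + R788. Cmpk2, a nucleotide kinase, went from 4691 in NS to 170.8 in NB9464 TCM + R788, and Rsad2, which encodes the antiviral enzyme viperin, from 3779 to 188.8. Trim25, a ubiquitin ligase of the RNA sensor encoded by Ddx58 (RIG-I), went from 17150 to 7375, and Ddx58 from 8359 to 1500. For Syk itself, the target of R788, the mean was 14990 in NS, 33930 under NB9464 TCM and 37340 under NBT3L TCM. With R788 it was 17970 without TCM, 42440 under NB9464 TCM and 44020 under NBT3L TCM.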

How the data were processed

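RNA of 12 libraries was measured by poly(A) RNA sequencing. The deposited values were whole-number read counts per Ensembl gene, made by the authors on mm10 and not scaled for depth or length. The submitters' processing notes name STAR 2.6.1d, Salmon 1.4.0, SAMtools 1.9, Picard 2.26 and MultiQC 1.11. Strand use and the handling of multi-mapping reads are not given in the sources used here, which matters for Ifit3 and Ifit3b. Reads were paired-end by the labels but single by the methods. Even values made up 65.2% to 67.9% of low counts, so a fragment may have been counted as 2. The methods state triplicates, whereas the labels give 2 libraries per group.

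Symbols and positions came from GENCODE M21, which held 54165 of 54232 gene IDs. The methods name DESeq2, and version 1.42.0 under R 4.3.3 was run on the counts, with median-of-ratios scaling, 1 model of the 6 group means, Wald tests and Benjamini-Hochberg adjustment over the 16281 genes that reached 10 counts in 2 or more libraries. Fold changes were not shrunken, whereas the study used apeglm shrinkage. A gene was called at an adjusted p under 0.05. Intervals are 1.96 SE on either side, and tests were two-sided. Levels per kb used the deposited gene lengths. Tested on simulated data, the fit recovered most changed genes, but the share of false calls was above the nominal level. Alternatives were edgeR 4.0.16 (quasi-likelihood), TMM scaling, no filter on low counts, a minimum mean of 50 counts, counts divided by 2, Ifit3 and Ifit3b summed, a fit of only the libraries compared, and each library left out.

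The members and lists were chosen with earlier results of these data known. Named were the members, Ifit1bl1 and Ifit1bl2, the 3 most abundant genes of each list, Ifnb1, Stat2, Irf9, Irf7, Usp18 and Syk, and the 10 genes most like the family in pattern, among those tested with a mean of at least 100; some genes that this rule or the lists hold are not reported here. Marker sums and motif searches cover the lists and letters named in the text. Promoter letters came from RefSeq (GRCm38.p6).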

Additional observations from a re-analysis of the deposited data

Results flagged for a closer look

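The response of the family to tumor medium differed between the 2 neuroblastoma lines, by the direct DESeq2 test of NB9464 against NBT3L TCM, which equals the difference of their effects against NS. The log2 fold changes were -1.129 for Ifit1, -1.15 for Ifit2, -1.623 for Ifit3 and -1.143 for Ifit3b (DESeq2 adjusted p between 2.94e-18 and 0.00181). With R788 present they were -0.721, -0.888, -1.152 and -1.67 in the same order (DESeq2 adjusted p between 6.28e-07 and 0.00138). Over all genes tested, 5.72% were called lower without R788 and 6.09% with it. In every case both NB9464 libraries were below both NBT3L libraries, but the share of all genes with such a separation was not counted. The 2 media were made from different lines, and the preparation of NBT3L TCM was not described, so the line and the preparation cannot be told apart. Groups of 2 libraries do not allow a test for outlying samples.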

How the results depend on the processing

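The medians of the 4 members in the 6 tested comparisons stayed below 0 under all alternatives run. Ifit3 and Ifit3b counted as a sum moved the median to -2.611 for NB9464 TCM against NS and to -1.077 for NBT3L TCM against NS, beyond the replicate spread, and to -0.077 for the R788 effect in NBT3L TCM minus that without TCM. By construction this takes the median over 3 values. With each library left out in turn, the median ranged from -2.386 to -2.118 for NB9464 TCM against NS, from -1.288 to -1.124 between the 2 TCMs, and from -1.179 to -0.915 between them with R788. For R788 against no R788, the lowest and highest were -2.789 and -2.671 where no TCM was given, -3.005 and -2.701 under NB9464 TCM, and -3.262 and -3.043 under NBT3L TCM. For the R788 effect in NB9464 TCM minus that without TCM it ranged from -0.008 to 0.27, turning negative without SJ10, and for that in NB9464 minus NBT3L TCM from 0.126 to 0.384. The cause was not tested. Of 240 values for single members in tested comparisons, 228 kept their direction and call and 12 lost the call, all of them Ifit1 or Ifit3b and named in the report. The edgeR test called 598 genes lower in NB9464 than in NBT3L TCM, against 931 by DESeq2. No paired analysis was possible because each library has its own number and nothing in the labels ties libraries of different groups. Low counts limit Ifit3b most, with 12 raw counts in its lowest library.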
